A study of Rattus norvegicus with 18 samples.

Results

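Livers of rats fed a high fat diet together with a pomegranate skin extract (HFD+PE) were compared with livers of rats fed chow. The samples were chosen by their labels: 6 HFD+PE arrays and 6 chow arrays, 12 of the 18 arrays of the series. No array of the group fed the high fat diet alone entered this comparison. In each group, replicates 3 and 4 looked like 2 arrays of 1 animal and were averaged, so 10 of the 15 animals of the series were compared, 5 in each group.

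All rats were adult male Sprague Dawley animals kept free of specific pathogens, with 12 h of light a day. Chow animals ate chow for 8 weeks. HFD+PE animals ate the high fat diet for 8 weeks and received the extract at 150 mg per kg per day. Animals of both groups were fasted overnight before the liver was taken. The labels describe the liver of both groups as normal, whereas that of the third group is labelled fatty. The 2 groups differ in diet and in extract at once, so the parts of the diet and of the extract cannot be told apart here. What the diet contained and how the extract was given were not stated in the labels.

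Hepatocytes make cholesterol from acetyl-CoA through mevalonate, squalene and a chain of sterol intermediates. The transcription factor SREBP-2 turns these enzymes on when sterol in the endoplasmic reticulum is low. Its relative SREBP-1c turns on the enzymes of fatty acid synthesis, and the Insig proteins hold both factors back when sterol is plentiful. In a fasted liver, fatty acids are instead burned in mitochondria and peroxisomes under the control of PPAR-alpha. Around the hepatocytes lie Kupffer cells, which are the resident macrophages, together with stellate and sinusoidal endothelial cells, and a fatty diet is known to act on each of them.

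Values are log2 signals from Affymetrix arrays after RMA normalization, so that a difference of 1 is a doubling, and they are rounded to 1 decimal. A change is HFD+PE minus chow, given with its standard error (SE). Values per animal follow the order 1, 2, 3-4, 5, 6, where 3-4 is the mean of 2 arrays. The arrays chow 3 and 4, and likewise HFD+PE 3 and 4, had 0 probe sets more than 2 log2 units apart. Each of the remaining 64 array pairs had between 20 and 109. This pairing was inferred from the values, since every array is labelled a biological replicate, and the p-values measure only the spread between these animals. The spiked hybridization controls split the arrays into a high set, from 12.35 to 12.92, and a low set, from 11.45 to 11.84. The high set held chow 1, 2 and 3 and HFD+PE 1 and 3, so each set held both groups, and values within each set are given below. Animals chow 3-4 and HFD+PE 3-4 have 1 array in each set, so the sets share animals and are not separate checks. The arrays were liver: Alb, encoding albumin, lay between 14.9 and 15 in the 10 animals, and the 11 measured hepatocyte markers had a median change of -0.01.

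With limma, 0 of 14217 genes (0.0%) passed a Benjamini-Hochberg adjusted p of 0.05 in this comparison. The smallest adjusted p by limma was 0.0643, for Hsph1. At an unadjusted limma p under 0.05, 825 genes (5.8%) were higher in HFD+PE and 763 (5.37%) were lower. The groups did not overlap, meaning that every animal of one group lay beyond every animal of the other, for 97 genes (0.682%) higher in HFD+PE and 103 (0.724%) lower. A change of at least 1 log2 unit was measured for 20 genes (0.141%) upward and 29 (0.204%) downward. The median change of all genes was 0.01. The gene differences below are therefore measured values that did not pass the adjusted test, and they are read against these shares.

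**Figure D1:**
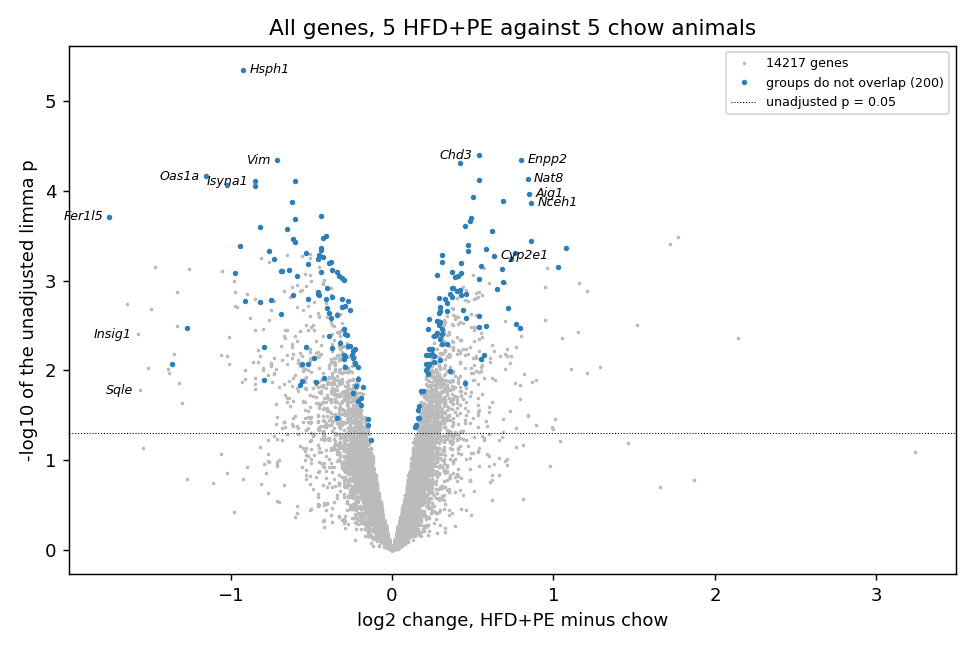
Each point is 1 of 14217 genes, with the log2 change (HFD+PE minus chow) on the x axis and -log10 of the unadjusted limma p on the y axis. Blue points are the 200 genes whose 5 HFD+PE and 5 chow animals do not overlap, and Hsph1 has the smallest p.

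The 10 lower genes with the smallest p included a chaperone, 2 cytoskeletal genes and an interferon-induced gene. Hsph1, a heat shock protein that helps the chaperone Hsp70 release its nucleotide, stood at 10, 9.9, 10.3, 9.8 and 9.6 in chow and at 8.9, 9.0, 8.9, 9.2 and 9.0 in HFD+PE, a change of -0.92 (SE 0.12). Every HFD+PE animal lay below every chow animal. Vim, the intermediate filament vimentin of mesenchymal cells, differed by -0.71 (SE 0.12), and Tagln2, the actin-binding transgelin 2, by -0.60 (SE 0.10). Oas1a, an interferon-induced sensor of double-stranded RNA, differed by -1.15 (SE 0.20), and Timp2, an inhibitor of matrix metalloproteinases, by -0.62 (SE 0.11). Isyna1, which makes inositol from glucose 6-phosphate, stood at 6.7, 6.7, 6.95, 6.3 and 6.2 in chow and at 5.9, 5.7, 5.9, 5.7 and 5.4 in HFD+PE. The other four were Acsf2, an acyl-CoA synthetase family member (-1.02, SE 0.18), Rtn4rl2, a Nogo receptor relative (-0.85, SE 0.15), Rpp21, a subunit of RNase P (-0.44, SE 0.08), and Fer1l5, of the ferlin family (-1.75, SE 0.33). The groups did not overlap for any of the 10, and their limma adjusted p ran from 0.0643 to 0.14.

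Among the 10 higher genes with the smallest p were enzymes of lipid handling. Enpp2 encodes autotaxin, the secreted enzyme that makes lysophosphatidate. It stood at 11.4, 10.8, 11.5, 11.4 and 11.3 in chow and at 11.9, 12.2, 12.2, 11.9 and 12.2 in HFD+PE, a change of 0.80 (SE 0.13). All HFD+PE animals lay above all chow animals, and chow animal 2 was the lowest. Nceh1, which hydrolyses cholesteryl esters, stood at 7.9, 7.7, 7.7, 7.8 and 7.7 in chow and at 9.2, 8.6, 8.5, 8.7 and 8.1 in HFD+PE (change 0.86, SE 0.16). Nat8, an acetyltransferase of the endoplasmic reticulum, differed by 0.84 (SE 0.14) and Aig1, an androgen-induced hydrolase, by 0.85 (SE 0.15). A second, dim probe set of Aig1 showed no difference. The others were Chd3 (0.54, SE 0.09), a subunit of the NuRD chromatin remodelling complex, Riox2 (0.54, SE 0.09), a nucleolar oxygenase, Aebp2 (0.49, SE 0.09), a partner of Polycomb complex PRC2, Coa7 (0.42, SE 0.07), a mitochondrial assembly factor, Ryr1 (0.50, SE 0.09), a calcium release channel, and Tmbim7 (0.69, SE 0.13), of the Bax inhibitor family, with a dim mean chow signal of 3.11. Limma adjusted p ran from 0.106 to 0.140 over these 10 genes. All 3 other probe sets of Aebp2 pointed the same way, with changes of 0.36, 0.42 and 0.48.

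**Figure D2:**
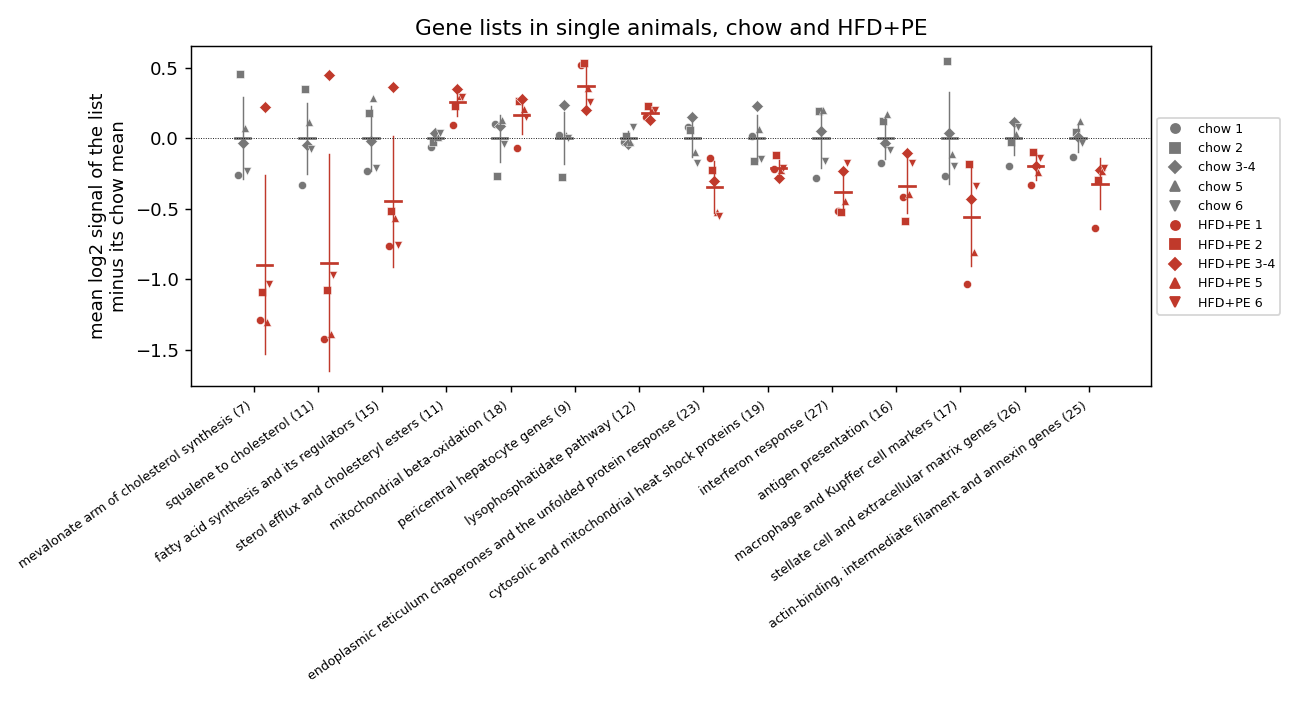
Each point is 1 animal, and its height is the mean log2 signal of a gene list minus the chow mean of that list; bars are the group mean ± SD over 5 animals, and the number of measured genes stands after each list. Animal HFD+PE 3-4 lies above the other HFD+PE animals in the lists of sterol and fatty acid synthesis, while all 5 HFD+PE animals lie below all chow animals in the cytoskeletal list.

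The enzymes of cholesterol synthesis were lower in 4 of the 5 HFD+PE animals and not in animal 3-4. Of the 7 measured genes of the mevalonate arm, 6 were lower and 6 had an unadjusted limma p under 0.05, with a median change of -0.77. Of the 11 measured genes from squalene to cholesterol, 11 were lower and 9 had an unadjusted p under 0.05, with a median of -0.91. These counts use the brightest probe set of each gene, and other probe sets of Sc5d and Nsdhl, given below, differed less. Over all genes 45.6% were lower and 51.1% higher. For the mevalonate arm the median was -0.65 in the low set of hybridization controls and -0.60 in the high set. For the sterol enzymes it was -0.78 and -0.53. At an unadjusted limma p under 0.05, 2 mevalonate and 3 sterol genes were lower in the low set, and 0 of either list in the high set.

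Along the pathway, Acat2, which joins acetyl-CoA units in the cytosol, stood at 7.2, 8.3, 7.55, 7.8 and 7.4 in chow and at 6.0, 6.4, 7.45, 5.8 and 6.3 in HFD+PE (change -1.26, SE 0.28). Idi1, which isomerizes isopentenyl diphosphate, stood at 8.1, 9.5, 8.6, 8.6 and 8.2 against 5.9, 6.8, 9.15, 6.5 and 7.1. Fdps, the farnesyl diphosphate synthase, stood at 10.3, 11.1, 10.4, 10.8 and 10.4 against 8.4, 9.2, 11.25, 8.3 and 8.9. In these 3 genes 4 HFD+PE animals lay below the lowest chow animal, and animal 3-4 lay inside or above the chow range. Mvk, Pmvk and Mvd, which phosphorylate and decarboxylate mevalonate, differed by -0.62, -0.74 and -0.77. Ggps1, which leads from this pathway to geranylgeranyl groups and not to sterol, had a change of 0.0.

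Sqle, the squalene epoxidase and an entry point to the sterol ring, stood at 6.2, 7.5, 6.75, 7.2 and 6.6 in chow and at 4.0, 5.0, 7.75, 4.4 and 5.3 in HFD+PE. Its change was -1.56 (SE 0.56; limma adjusted p 0.319). Animal 3-4 was the highest of the 10 animals, and the other HFD+PE animals were the lowest 4. Cyp51, the lanosterol demethylase, stood at 11.2, 12.0, 11.3, 11.5 and 11.6 against 9.4, 10, 11.75, 9.5 and 10.3, with animal 3-4 inside the chow range and the others below it. Tm7sf2 and Msmo1, which act next, differed by -1.38 (SE 0.46) and -1.32 (SE 0.46). The later enzymes Hsd17b7, Ebp and Dhcr7 differed by -0.91, -0.53 and -0.93. The smallest differences of the list were those of Nsdhl (-0.25) and Sc5d (-0.30). Other probe sets of Sc5d, with mean signals of 9.65 and 9.99, differed by -0.14 and 0.16, and a second probe set of Nsdhl by -0.01. Second probe sets of Cyp51, Hsd17b7, Fdft1 and Lss were lower, by -1.37, -0.78, -0.72 and -0.40. Both arrays of animal 3-4 gave the same picture, with Sqle at 7.7 and 7.8 and Fdps at 11.2 and 11.3, although 1 array was in the high and 1 in the low set of hybridization controls.

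Each animal was left out in turn, and the fit without animal 3-4 is given here because its values for these genes had been seen. That fit is therefore no separate test of them, and with all animals 0 genes passed. Without HFD+PE animal 3-4, 26 genes passed a limma adjusted p of 0.05, 23 of them lower. These included 5 of the 7 mevalonate genes, 7 of the 11 sterol genes and 6 of the 15 fatty acid synthesis genes. The list medians were then -1.05 for the mevalonate arm and -1.19 for the sterol enzymes. Insig1, which anchors SREBP when sterol is plentiful and is itself a SREBP target, had the smallest limma adjusted p of that fit, 0.00413, at a change of -2.08. In the list of endoplasmic reticulum chaperones animal 3-4 had a mean of -0.30, among the -0.14 to -0.55 of its group. Over all 50 lists, however, its mean was above all other HFD+PE animals in 16 and below all of them in 12. For HFD+PE animal 1 these numbers were 6 and 24.

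Among the regulators of the pathway the differences were uneven. Insig1 stood at 11, 10.5, 11.3, 10.2 and 10.5 in chow and at 8.5, 8.8, 11.15, 8.5 and 8.7 in HFD+PE (change -1.57, SE 0.44). Again animal 3-4 was in the chow range and the 4 other animals lay below it. Srebf2, encoding SREBP-2, differed by -0.39 (SE 0.17), Npc2, which carries cholesterol out of lysosomes, by -0.36 (SE 0.11), and Mylip, a sterol-regulated ubiquitin ligase, by -0.34 (SE 0.12). Of the 9 measured genes of sterol sensing and uptake, 5 were lower and 4 higher, with 4 and 1 at an unadjusted p under 0.05.

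**Figure D3:**
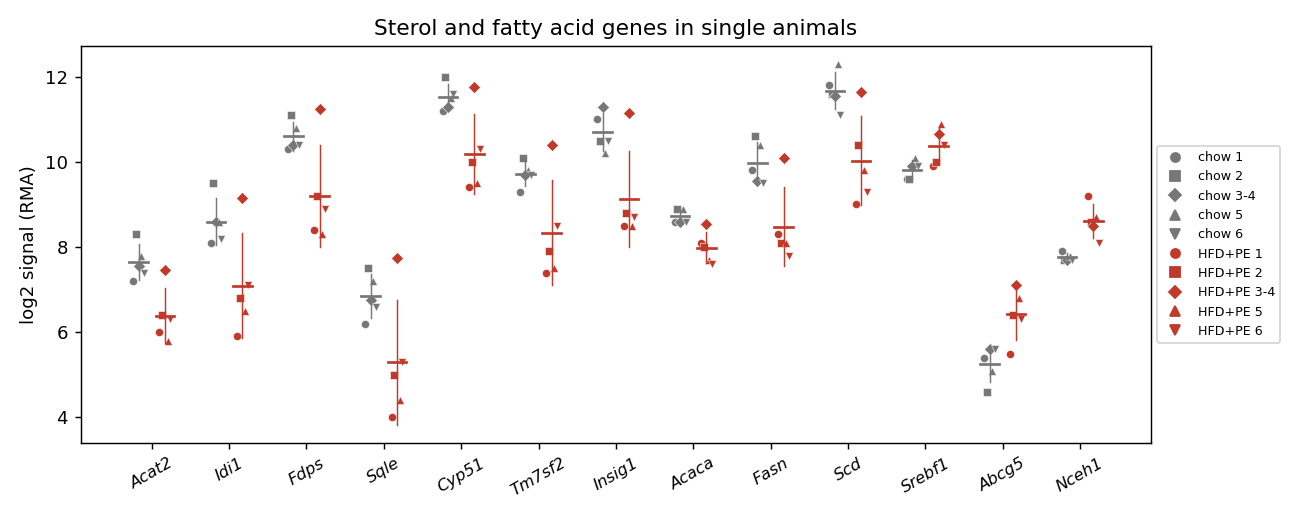
Log2 signals of 13 genes of sterol and fatty acid metabolism, 1 point per animal with the group mean ± SD over 5 animals (chow grey, HFD+PE red). The diamond of HFD+PE animal 3-4 sits above the chow points for Fdps, Sqle and Tm7sf2, whereas for Nceh1 all HFD+PE points lie above all chow points.

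The genes of sterol efflux, HDL cholesterol and cholesteryl ester handling had a positive median change. The mean of this list, of 11 measured genes, was between 0.09 and 0.35 in the HFD+PE animals and between -0.06 and 0.04 in chow, so that the groups did not overlap. Its median change was 0.19, with 7 genes higher and 4 lower, and 4 of the higher genes had an unadjusted limma p under 0.05. The list median was 0.11 without HFD+PE animal 3-4, and 0.08 among the arrays of the high set. The list mean includes Nceh1, already named for its small p, so the lack of overlap is not separate support. Abcg5, which with Abcg8 pumps sterol into bile, stood at 5.4, 4.6, 5.6, 5.1 and 5.6 in chow and at 5.5, 6.4, 7.1, 6.8 and 6.3 in HFD+PE (change 1.16, SE 0.27). Only HFD+PE animal 1 lay within the chow range. Scarb1, the receptor that takes up HDL cholesterol, differed by 0.38 (SE 0.10) and Lcat, which esterifies cholesterol in plasma, by 0.19 (SE 0.08). A second probe set of Scarb1, with a mean signal of 6.9, differed by only 0.09. The 19 genes of bile acid synthesis and transport had a median change of 0.05 (0.13 without chow animal 3-4), with 3 higher and 1 lower at an unadjusted p under 0.05.

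Fatty acid synthesis showed the same split between animals. Of 15 measured genes, 12 were lower and 2 higher, with 5 and 1 at an unadjusted limma p under 0.05 and a median change of -0.26 (-0.31 in the low set and -0.12 in the high set of arrays). Without HFD+PE animal 3-4 the median was -0.47. Fasn, the fatty acid synthase, stood at 9.8, 10.6, 9.55, 10.4 and 9.5 in chow and at 8.3, 8.1, 10.1, 8.1 and 7.8 in HFD+PE (change -1.49, SE 0.38). Scd, the stearoyl-CoA desaturase, stood at 11.8, 11.6, 11.55, 12.3 and 11.1 against 9.0, 10.4, 11.65, 9.8 and 9.3 (change -1.64, SE 0.41). In both genes the other 4 HFD+PE animals lay below all chow animals and animal 3-4 lay within the chow range. Acaca, which makes malonyl-CoA, was the 1 member without overlap: it stood at 8.6, 8.9, 8.6, 8.9 and 8.6 in chow and at 8.1, 8.0, 8.55, 7.7 and 7.6 in HFD+PE. The nearest animals, at 8.55 and 8.6, differ by less than the rounding of the values, and a second, dim probe set of Acaca differed by -0.03.

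The suppliers of acetyl-CoA and NADPH followed: Acss2, the acetyl-CoA synthetase, differed by -0.86 (SE 0.27), Pgd, of the pentose phosphate pathway, by -0.55 (SE 0.18), and Acly, the ATP citrate lyase, by -0.71 (SE 0.34). Srebf1, the gene of SREBP-1, differed in the other direction from the enzymes. It stood at 9.6, 9.6, 9.9, 10.1 and 9.9 in chow and at 9.9, 10, 10.65, 10.9 and 10.4 in HFD+PE (change 0.55, SE 0.18). HFD+PE animals 3-4, 5 and 6 lay above the chow range and animals 1 and 2 within it. Of the 5 genes of polyunsaturated fatty acid synthesis 3 were lower and 2 higher, with a median change of -0.18 that was 0.06 without HFD+PE animal 1. Fads1, the delta-5 desaturase, differed by -0.71 (SE 0.30), with animal 3-4 again at 12.45 and the other HFD+PE animals between 10.3 and 11.4.

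Most mitochondrial fatty acid oxidation genes were higher in HFD+PE by small amounts. Of 18 mitochondrial genes 16 were higher and 2 lower, 5 of the higher at an unadjusted limma p under 0.05, with a median change of 0.21 (0.16 in the low and 0.15 in the high set). The median was 0.11 without chow animal 2, which had the lowest mean of this list among the 10 animals, -0.27. Decr1, which removes double bonds before oxidation, stood at 11.7, 11.2, 11.65, 11.8 and 11.5 in chow and at 11.7, 12.0, 12.05, 12.0 and 12.0 in HFD+PE. HFD+PE animals 2, 3-4, 5 and 6 lay above the chow range and animal 1 within it. Acaa2, the last enzyme of the spiral, differed by 0.37 (SE 0.13) and Cpt1a, which admits fatty acids to mitochondria, by 0.21 (SE 0.09).

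In peroxisomes Ehhadh, the bifunctional enzyme, stood at 10.8, 10.1, 10.55, 10.8 and 10.6 in chow and at 10.8, 11.1, 11.55, 11.5 and 11.4 in HFD+PE (change 0.70, SE 0.16). The chow maximum was reached but not passed by HFD+PE animal 1. Ech1, an isomerase of both organelles, differed by 0.52 (SE 0.16), and of the 14 peroxisomal genes 9 were higher and 5 lower, with 4 and 0 at an unadjusted limma p under 0.05. Their median change was 0.085, and it was 0.045 without chow animal 2, 0.0375 in the low set and 0.025 in the high set. Of ketone body synthesis, Acat1 and Bdh1 differed by 0.46 (SE 0.18) and 0.44 (SE 0.13). The 15 measured PPAR-alpha targets had a median change of 0.00 and pointed both ways. Vnn1, a pantetheinase, stood at 8.8, 7.7, 7.9, 8.7 and 8.8 against 9.3, 9.9, 9.3, 9.6 and 9.2, whereas Angptl4, an inhibitor of lipoprotein lipase, stood at 11.4, 10.9, 10.85, 11.2 and 11.2 against 10.3, 10.2, 10.95, 10.6 and 10.4. All HFD+PE animals were above chow for Vnn1, and 4 of 5 were below chow for Angptl4. Cyp4a8, an omega-hydroxylase, differed by -1.27 (SE 0.35) without overlap.

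Genes of the hepatocytes around the central vein were higher in HFD+PE. Of 9 measured pericentral genes 9 were higher, 4 of them at an unadjusted limma p under 0.05, with a median change of 0.38 (0.33 in the low and 0.37 in the high set). In the low set 7 were higher and 2 lower. Without chow animal 2 the median was 0.30, with 8 higher and 1 lower. The list means of the groups overlapped, from 0.20 to 0.53 in HFD+PE and from -0.28 to 0.24 in chow. Cyp2e1, an ethanol- and fatty acid-oxidizing P450, stood at 13.0, 12.4, 13.1, 13.2 and 12.9 in chow and at 13.6, 13.5, 13.35, 13.7 and 13.6 in HFD+PE (change 0.63, SE 0.14), without overlap. Glul, the glutamine synthetase of the innermost cell layer, stood at 10.3, 10.6, 10.45, 10.5 and 10.5 against 11.1, 10.9, 10.75, 10.6 and 10.9. HFD+PE animal 5 touched the chow maximum and the others exceeded it. Lect2, a Wnt-responsive hepatokine, differed by 0.39 (SE 0.14) and Lgr5, an R-spondin receptor with a chow signal of 3.72, by 0.38 (SE 0.11). The 9 periportal genes had a median change of -0.13, with 6 lower and 3 higher, and of -0.04 without HFD+PE animal 3-4, which had the lowest list mean, -0.34. Of these, Gls2, the liver glutaminase, differed by -0.34 (SE 0.12).

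The lysophosphatidate pathway, to which autotaxin belongs, had 10 of 12 measured genes higher and a median change of 0.13. Its mean lay between 0.13 and 0.23 in HFD+PE and between -0.05 and 0.08 in chow, without overlap. That mean includes Enpp2, already named for its small p, so the lack of overlap is not separate support for the pathway. The list without Enpp2 was not examined. Pla1a, a phospholipase that releases lysophospholipids, differed by 0.55 (SE 0.15). The receptor gene Lpar2 stood at 4.8, 4.8, 4.75, 4.7 and 4.8 in chow and at 4.9, 5.4, 4.95, 5.0 and 5.1 in HFD+PE. These groups did not overlap, but the signal is dim. Enpp2 had the largest change of the 12 genes and Pla1a the next.

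The chaperones of the endoplasmic reticulum were lower in all 5 HFD+PE animals than in the chow mean. Of 23 measured genes of this compartment and the unfolded protein response, 20 were lower and 3 higher, and 13 of the lower genes had an unadjusted limma p under 0.05. The median change was -0.33, and it was -0.28 in the low set and -0.37 in the high set. Sdf2l1, a subunit of a chaperone complex with BiP, stood at 10.2, 10.3, 10.35, 10 and 9.6 in chow and at 9.7, 9.5, 9.0, 8.4 and 8.6 in HFD+PE (change -1.05, SE 0.24). HFD+PE animal 1 overlapped with chow animal 6. Hyou1, the nucleotide exchange factor of BiP, stood at 7.7, 7.6, 7.95, 7.8 and 7.2 against 7.1, 7.1, 6.95, 6.5 and 6.5, without overlap. Hspa5, which is BiP itself, differed by -0.45 (SE 0.12), Hsp90b1, the Hsp90 of this compartment, by -0.53 (SE 0.13), Creld2 by -0.98 (SE 0.23) and Manf by -0.63 (SE 0.16). Pdia5, a disulfide isomerase, was the other member without overlap (-0.38, SE 0.08). Limma adjusted p for the members just named ran from 0.147 to 0.186.

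Some genes of this list carry an endoplasmic reticulum stress element, the motif CCAAT, 9 bases and CCACG, which the factors ATF6 and XBP1 are known to use with NF-Y. It was searched on both strands from 250 bases before to 50 bases after the start site, in promoters credited to RefSeq (build GRCr8). A match was found for 7 of the 19 chaperone genes with an available promoter (36.8%) and in 22 of all 33469 promoters (0.0657%). Each chaperone gene counted once, with a match in any of its promoters, whereas all promoters were counted singly. No match was recorded for Sdf2l1, Hyou1, Manf or Pdia5, which include the largest change and both members without overlap. Either their promoters held no match or no promoter was available. Stretches of 100 bases around the match are shown for 4 of the lower chaperone genes that have one. They are written 5′ to 3′ on the strand of the gene, with the match in capitals; the matches of Creld2 and Calr are in the reverse direction, and Hsp90b1 has a second match outside the stretch shown. They come from chr7:121789199-121789298 (plus strand, Creld2), chr3:38452933-38453032 (plus strand, Hspa5), chr7:23012410-23012509 (minus strand, Hsp90b1) and chr19:40213117-40213216 (plus strand, Calr).
Creld2: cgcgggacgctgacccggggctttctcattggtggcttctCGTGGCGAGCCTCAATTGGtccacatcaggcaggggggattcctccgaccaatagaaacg
Hspa5: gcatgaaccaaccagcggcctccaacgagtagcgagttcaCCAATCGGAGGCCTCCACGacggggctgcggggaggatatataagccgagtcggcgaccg
Hsp90b1: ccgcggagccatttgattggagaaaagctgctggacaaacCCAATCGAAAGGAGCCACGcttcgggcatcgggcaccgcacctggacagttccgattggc
Calr: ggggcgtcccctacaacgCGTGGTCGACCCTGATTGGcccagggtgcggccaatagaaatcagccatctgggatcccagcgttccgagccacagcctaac
A match describes the letters and not binding, which was not measured. The sterol regulatory element in the form TCACNCCAC was found for 0 of the 6, 9, 8 and 12 genes with an available promoter in the mevalonate, sterol, sterol control and fatty acid lists, and in 1.12% of all promoters.

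The list of cytosolic and mitochondrial heat shock proteins, to which Hsph1 belongs, was also mostly lower. Of 19 measured genes 14 were lower and 5 higher, with 4 of the lower at an unadjusted limma p under 0.05 and a median change of -0.19. Stip1, the adaptor between Hsp70 and Hsp90, stood at 8.2, 8.1, 8.45, 8.1 and 7.9 in chow and at 7.6, 7.7, 7.7, 7.8 and 7.7 in HFD+PE, without overlap (change -0.45, SE 0.10). The integrated stress response list, with 14 genes, had a median of 0.11 and 0 genes at an unadjusted limma p under 0.05 in either direction. Its median was 0.031 without HFD+PE animal 5 and -0.07 in the high set, where 10 genes were lower and 4 higher.

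Interferon-induced genes were lower in HFD+PE. Of 27 measured genes 23 were lower and 3 higher, 15 of the lower at an unadjusted limma p under 0.05, and 5 did not overlap. The median change was -0.41 (-0.38 in the low and -0.27 in the high set of arrays). The list means of the groups overlapped, from -0.52 to -0.18 in HFD+PE and from -0.28 to 0.20 in chow. Of the HFD+PE animals 3 lay below the lowest chow animal. Oas1a stood at 7.5, 7.7, 8.0, 8.1 and 7.5 in chow and at 6.8, 6.2, 6.85, 6.1 and 7.1 in HFD+PE. Bst2, the tetherin that holds budding virus at the cell surface, stood at 11.8, 12.3, 12.15, 12.3 and 11.9 against 11.4, 11.6, 11.35, 11.4 and 11.7. In both genes every HFD+PE animal lay below every chow animal. Oasl (-0.68, SE 0.15), the RNA sensor gene Dhx58 (-0.26, SE 0.07) and Parp14 (-0.30, SE 0.08) were the other 3 without overlap. For Parp14 the nearest animals, at 8.55 and 8.6, differ by less than the rounding of the values. Irf7, the factor that amplifies interferon production, differed by -0.80 (SE 0.22) and Ifi44 by -0.46 (SE 0.14).

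The interferon-stimulated response element was searched as GAAA, 2 bases and GAAA on both strands. It was present for 14 of the 21 interferon genes with an available promoter (66.7%), each gene counted once, and in 1312 of all promoters, counted singly (3.92%). No match was recorded for Oasl or Dhx58, through lack of a match or of an available promoter. The same stretches of 100 bases are shown for 4 lower genes of this list, from chr12:41330385-41330484 (plus strand, Oas1a), chr16:18255039-18255138 (minus strand, Bst2), chr1:205800033-205800132 (minus strand, Irf7) and chr2:243303807-243303906 (minus strand, Ifi44). Capitals mark the match, which reads in reverse in Irf7 and Ifi44; Oas1a and Bst2 hold 2 overlapping matches, and the second match of Ifi44 runs past the end shown.
Oas1a: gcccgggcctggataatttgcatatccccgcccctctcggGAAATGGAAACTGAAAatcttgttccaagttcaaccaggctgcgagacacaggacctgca
Bst2: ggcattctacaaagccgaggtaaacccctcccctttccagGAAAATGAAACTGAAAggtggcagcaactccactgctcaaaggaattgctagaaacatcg
Irf7: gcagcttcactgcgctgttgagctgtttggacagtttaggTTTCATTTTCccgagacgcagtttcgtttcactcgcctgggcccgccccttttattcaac
Ifi44: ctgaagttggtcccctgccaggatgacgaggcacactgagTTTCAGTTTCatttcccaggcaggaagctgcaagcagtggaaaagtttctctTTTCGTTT
All 16 measured genes of antigen presentation were lower, 5 of them at an unadjusted limma p under 0.05, with a median change of -0.36 (-0.26 in the low and -0.23 in the high set). Their list means overlapped, from -0.58 to -0.11 in HFD+PE and from -0.18 to 0.17 in chow. Without chow animal 2 the median was -0.22, with 14 lower, 2 higher and 3 at an unadjusted limma p under 0.05, and without HFD+PE animal 1 there were 2 at that p. Psmb9, an interferon-induced subunit of the immunoproteasome, stood at 9.3, 9.4, 9.65, 9.4 and 9.2 in chow and at 8.6, 8.4, 8.9, 8.7 and 9.1 in HFD+PE and was the 1 member without overlap.

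Markers of macrophages and Kupffer cells were lower as well. Of 17 measured markers 15 were lower and 2 higher, 10 of the lower at an unadjusted limma p under 0.05, with a median change of -0.65. In bulk liver RNA, fewer macrophages and less RNA per macrophage cannot be told apart. Clec4f, a receptor of Kupffer cells, stood at 11, 11.7, 11.15, 10.6 and 10.8 in chow and at 9.5, 10.5, 10.3, 9.8 and 10.3 in HFD+PE. C1qa, of complement C1q, stood at 9.3, 10.2, 9.5, 9.4 and 9.3 against 8.4, 9.1, 8.9, 8.2 and 9.0, and Cd68, a lysosomal glycoprotein, at 8.0, 9.0, 8.3, 8.0 and 8.0 against 6.8, 7.9, 7.75, 7.2 and 7.7. In these 3 genes and in C1qc (-0.91, SE 0.23) the groups did not overlap, and chow animal 2 was the highest animal in each. The list mean was 0.54 in chow animal 2 and between -0.27 and 0.04 in the other chow animals, against -1.03 to -0.19 in HFD+PE. The median was -0.46 without chow animal 2. It was -0.28 in the low set of arrays and -0.95 in the high set, which holds chow animal 2 and HFD+PE animal 1, the highest and the lowest of the 10.

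Markers of other cells in the organ had smaller median changes. The median was -0.06 for 14 T, B and NK cell markers, -0.06 for 7 neutrophil markers, 0.00 for 13 endothelial markers and -0.03 for 5 bile duct markers. Their numbers at an unadjusted limma p under 0.05 were 1 lower and 0 higher for the lymphocyte, neutrophil and bile duct lists, and 1 in each direction for endothelial cells. Leaving out 1 animal at a time moved these small medians, from -0.09 to -0.03 for lymphocytes, from -0.11 to -0.01 for neutrophils and from -0.09 to 0.03 for bile duct cells. Members without overlap were Prf1, Krt19 and Csf3r. Prf1, the perforin of cytotoxic cells, stood at 6.4, 6.7, 6.25, 6.8 and 6.4 in chow and 5.3, 5.9, 6.1, 5.3 and 6.2 in HFD+PE. Its nearest animals, at 6.2 and 6.25, differ by less than the rounding of the values. Krt19, a keratin of bile duct cells, stood at 5.2, 5.2, 5.2, 6.0 and 5.6 against 5.0, 4.8, 4.55, 4.6 and 4.8 (change -0.69, SE 0.16). Csf3r, the receptor of granulocyte colony-stimulating factor, differed by -0.15 (SE 0.06) at a dim signal. The list mean of the 14 lymphocyte markers ran from -0.17 to 0.14 in chow and from -0.23 to -0.03 in HFD+PE. The part that macrophage content plays in the interferon and antigen presentation lists was not tested.

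**Figure D4:**
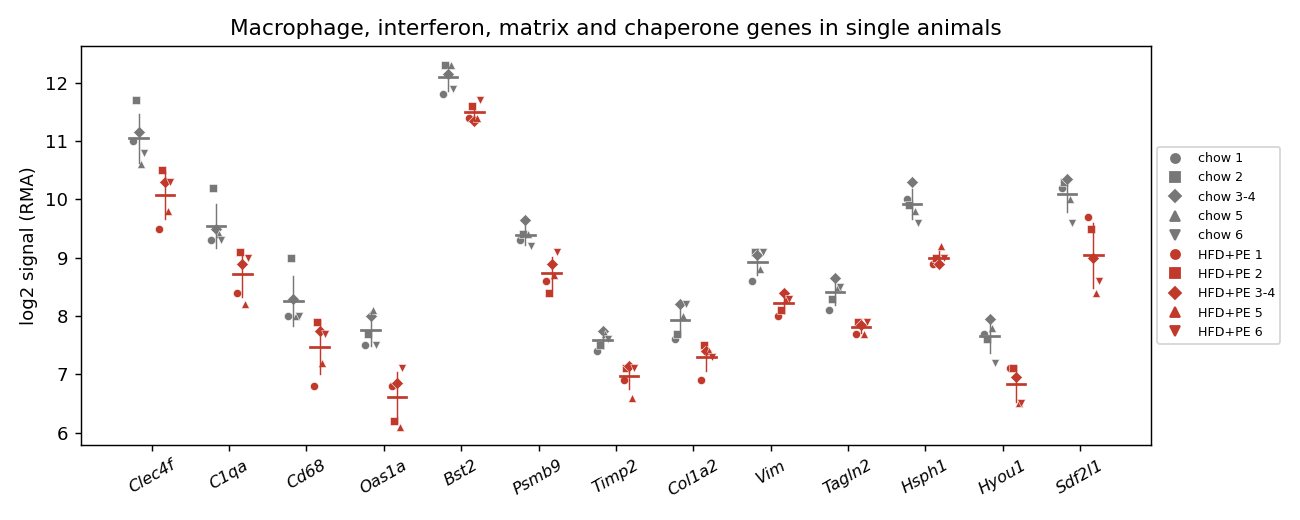
Log2 signals of 13 macrophage, interferon, matrix and chaperone genes, 1 point per animal with the group mean ± SD over 5 animals (chow grey, HFD+PE red). For Oas1a, Bst2, Vim, Tagln2 and Hsph1 every HFD+PE point is below every chow point; for Sdf2l1 HFD+PE animal 1 overlaps with chow.

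Most matrix and cytoskeletal genes were lower in HFD+PE. Of 26 stellate cell and matrix genes 22 were lower and 4 higher, with 12 and 2 at an unadjusted limma p under 0.05 and a median change of -0.26 (-0.26 in the low and -0.24 in the high set). The mean of this list overlapped between the groups, from -0.33 to -0.10 in HFD+PE and from -0.20 to 0.11 in chow. In 3 HFD+PE animals it was below the lowest chow animal. Col1a2, a chain of fibrillar collagen I, stood at 7.6, 7.7, 8.2, 8.0 and 8.2 in chow and at 6.9, 7.5, 7.4, 7.4 and 7.3 in HFD+PE (change -0.64, SE 0.14). Timp2 stood at 7.4, 7.5, 7.75, 7.7 and 7.6 against 6.9, 7.1, 7.15, 6.6 and 7.1, and Timp1 differed by -0.43 (SE 0.09). These 3 genes had no overlap. Col4a1, of basement membrane collagen, differed by -0.45 (SE 0.10) and Ccn2, a target of TGF-beta and YAP, by -0.85 (SE 0.21). Lox, the lysyl oxidase that crosslinks collagen, went the other way: it stood at 8.4, 6.4, 8.15, 8.4 and 7.2 in chow and at 9.3, 9.4, 9.05, 8.2 and 10.2 in HFD+PE (change 1.52, SE 0.42). Only HFD+PE animal 5 lay within the chow range for Lox.

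Of 25 actin-binding, intermediate filament and annexin genes 22 were lower and 2 higher, 14 of the lower at an unadjusted limma p under 0.05, and 6 did not overlap. The median change was -0.31 (-0.26 in the low and -0.40 in the high set). The list mean lay between -0.64 and -0.22 in HFD+PE and between -0.14 and 0.12 in chow. That mean includes Vim and Tagln2, already named for their small p. Vim stood at 8.6, 9.1, 9.05, 8.8 and 9.1 in chow and at 8.0, 8.1, 8.4, 8.3 and 8.3 in HFD+PE. Tagln2 stood at 8.1, 8.3, 8.65, 8.5 and 8.5 against 7.7, 7.9, 7.85, 7.7 and 7.9. The other 4 without overlap were S100a10 (-0.46, SE 0.10), the partner of annexin A2, Crip1 (-0.59, SE 0.14), a LIM protein, Flna (-0.31, SE 0.07), the actin crosslinker filamin A, and Cnn2 (-0.32, SE 0.09), a calponin. For Cnn2 the nearest animals, at 7.7 and 7.75, differ by less than the rounding of the values. Many of these genes are expressed by macrophages and stellate cells, whose markers were lower in the same animals, and how far the lists share a source was not tested.

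Clock genes differed widely between animals of 1 group. Dbp, Bmal1 and Npas2 are named for that, after their values were seen. Dbp, an output gene that peaks in the day, stood at 5.4, 9.4, 5.35, 7.6 and 6.4 in chow and at 9.2, 9.5, 7.85, 7.2 and 7.7 in HFD+PE. Bmal1, of the opposite phase, stood at 7.1, 5.5, 7.4, 7.0 and 6.8 against 5.3, 5.2, 7.1, 7.1 and 6.8. Chow animal 2 and HFD+PE animals 1 and 2 thus had high Dbp with low Bmal1, and Npas2 was also lowest in these 3 animals, at 6.2, 6.5 and 5.6 against 7.6 to 8.3 in the others. Dbp had a change of 1.46 with an SE of 0.72. Of the 16 measured clock genes 6 were higher at an unadjusted limma p under 0.05 and 1 was lower, with a median change of 0.18. Without chow animal 2 the median was 0.35, and without chow animal 1 it was 0.07. Hlf (0.55, SE 0.18), Tef (0.60, SE 0.24), Nr1d1 (0.53, SE 0.22), Nr1d2 (0.48, SE 0.18) and Per3 (1.0, SE 0.45) were among the higher genes. The labels do not state the hour at which each liver was taken, and its part in these and other differences was not tested.

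**Figure D5:**
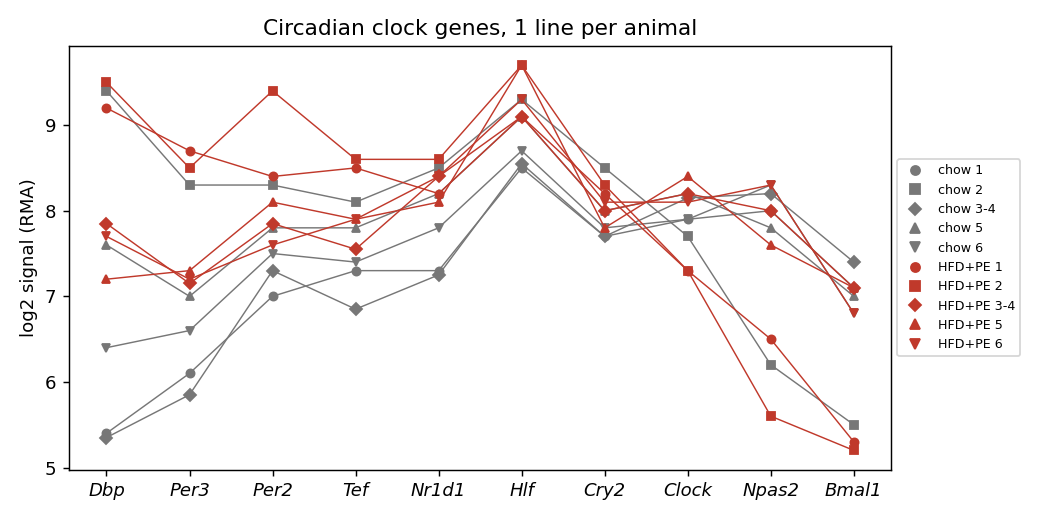
Log2 signals of 10 clock genes, with 1 line per animal (chow grey, HFD+PE red). The lines of chow animal 2 and HFD+PE animals 1 and 2 run from the highest Dbp to the lowest Bmal1, across both groups.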

How the data were processed

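Total RNA of 18 rat liver samples was hybridized as biotin-labelled cRNA to Affymetrix arrays. The deposited values are log2 signals that the authors made with RMA in Affymetrix Expression Console, per the submitters' processing notes; their versions are not stated there. Arrays give no read depth, and the number of animals limits the precision. The values are rounded to 1 decimal.

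Of 31099 probe sets, 57 controls were left out. One gene symbol was found for 20826, several for 436 and none for 9780, from the platform annotation updated through RefSeq. The probe set with the highest mean stood for a gene, giving 14217 genes, 4525 of them with more than 1 probe set. Replicates 3 and 4 of each group were averaged before testing, which left 5 animals a group. Genes were tested with limma 3.58.1 (lmFit, eBayes) in R 4.3.3 with Benjamini-Hochberg adjustment over all genes, and no set test was run. The script was tested on simulated data. Tables and figures were made in Python 3.11.15 with pandas 2.3.3, numpy 2.4.6 and matplotlib 3.10.9; statmod 1.5.0 served duplicateCorrelation.

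Genes are named by a rule: the 10 higher and 10 lower with the smallest p, without placeholder symbols, and in each list described the members whose groups do not overlap or that have the smallest p, up to 8, with others where a pathway is followed. The comparison and its 50 gene lists (857 symbols, 772 measured) were chosen with earlier results of these data known. Lists are described by counts and medians with no test. Alternatives were other uses of the array pairs, other probe set rules, a filter on dim genes, equal array medians, the hybridization control sets, a replicate block, other variance models and leaving out each animal.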

Additional observations from a re-analysis of the deposited data

Results flagged for a closer look

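In 100 groups of 5 animals for the list means and 238 for the genes named in the text, 37 held 1 animal whose gap to the nearest other exceeded the 95% limit of Dixon's test. Chance gives this in about 1 in 20 groups when genes are not chosen by their values and values are not tied. Here some genes were named after their values were seen, and genes of 1 list are not independent. Rounding to 1 decimal also ties values, and the flags of Csf3r and Timp1 rest on 1 rounding step.

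HFD+PE animal 3-4 was the high animal of its group in 3 list means: 0.2186 for the mevalonate arm, 0.4482 for the sterol enzymes and 0.3613 for fatty acid synthesis. It was also the high animal for Mvd (7.6), Lss (8.25), Nsdhl (11.55), Insig1 (11.15), Fasn (10.1), Acss2 (9.9), Pgd (8.45) and Acly (11.55).

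Chow animal 2 was low for the mean of the peroxisomal oxidation list, at -0.2879, and for Enpp2 (10.8), Ech1 (10.1), Acat1 (9.8) and Npas2 (6.2). It was high for the inflammation list (0.2665), the acute phase list (0.34), the neutrophil markers (0.3871), C1qa (10.2), Csf3r (3.7) and Fer1l5 (8.6).

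HFD+PE animal 1 was low for the peroxisomal list (-0.1021), the lipoprotein list (-0.12), the cytoskeletal list (-0.6392), Decr1 (11.7) and Acaa2 (11.5). HFD+PE animal 2 was high for Cyp1a1 (13.0), Cyp1a2 (13.7) and the neutrophil markers (0.0586), and low for Parp14 (8.3). HFD+PE animal 5 was high for Aig1 (8.6) and the integrated stress response list (0.4514). Single animals were also flagged for Ryr1 (chow 5, 4.4), Srebf2 (chow 5, 8.4), Dnajb11 (chow 6, 9.6) and Timp1 (HFD+PE 6, 5.2).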

How the results depend on the processing

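The count of genes past a limma adjusted p of 0.05 was 0 with 5 animals a group. It was 118 with the 12 arrays taken as 12 animals (50 higher, 68 lower), 14 with the hybridization control set as a term (5 and 9), and 1 with only replicate 3 of each pair, with every probe set tested, or with eBayes with trend and robust. Over the 10 fits that leave out 1 animal it ran from 0 to 26, the highest without HFD+PE 3-4, with 8 without HFD+PE 1 and 1 each without chow 5, chow 6 and HFD+PE 2. At an unadjusted limma p under 0.05 these 10 fits gave 650 to 1002 genes higher and 629 to 844 lower, and 128 to 251 higher and 132 to 198 lower without overlap. The numbers at an unadjusted p were 1490 and 1308 for every probe set, 624 and 711 for the low set of arrays, and 380 and 336 for the high set, an alternative chosen after seeing the data. Genes without overlap numbered 60 and 60 with 12 arrays, 157 and 156 with every probe set, 172 and 129 with array medians set equal, 362 and 375 in the low set, 1013 and 800 in the high set, and 125 and 151 with description number 3 only.

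List medians that moved were, in the high set, -0.0833 for sterol control, 0.0833 for sterol efflux, -0.1667 for insulin signalling, -0.0667 for the integrated stress response, -0.2167 for inflammation and -0.1667 for endothelial markers. In the low set they were -0.0167 for bile acids, -0.2833 for macrophages and 0.075 for bile duct cells. The bile acid median was -0.0167 with 12 arrays, and that of fat and pancreas markers was -0.13 without dim genes. Leaving out 1 animal gave 0.105 to 0.245 for sterol efflux and -0.0 to 0.13 for bile acids. Ugt2b turned to -0.1833 in the low set, which does not hold chow animals 1 and 2, the 2 animals low for this gene. The cause was not tested for any of the list medians above.

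Whether replicate numbers pair the animals was not settled. Same-numbered animals had correlations of 0.1993, -0.0276, 0.0447, 0.1025 and 0.0411, and differently numbered animals ran from -0.2518 to 0.2204. With a replicate block 0 genes passed the limma adjusted p, the smallest being 0.0785, and 896 were higher and 802 lower at an unadjusted p.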

Other observations

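The following genes were chosen after their values were seen. Cyp1a1, the P450 induced through the aryl hydrocarbon receptor, stood at 5.0, 4.7, 4.9, 4.8 and 5.1 in chow and at 4.8, 13.0, 6.05, 5.2 and 4.8 in HFD+PE. Cyp1a2, a P450 under the same receptor, stood at 11.5, 11.3, 11.55, 11.1 and 11.3 against 11.9, 13.7, 11.35, 11.8 and 11.3. HFD+PE animal 2 was the highest for both. For Cyp1a1 HFD+PE animal 3-4, at 6.05, also lay above the chow range of 4.7 to 5.1, and animals 1, 5 and 6 lay in or near it. For Cyp1a2 the other HFD+PE animals lay between 11.3 and 11.9, and the chow animals between 11.1 and 11.55.

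Ugt2b, a glucuronosyltransferase of a family with closely similar members, stood at 6.0, 3.6, 13.2, 13.1 and 13.5 in chow and at 13.3, 13.1, 12.7, 13.1 and 13.4 in HFD+PE. Chow animals 1 and 2 were low and the other 8 animals were alike. Ugt2b1, of the same family, stood at 9.8, 8.9, 10.4, 10.7 and 10.7 against 8.5, 9.0, 9.05, 8.7 and 7.9, a change of -1.47 (SE 0.33).

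Aldh1a1, which oxidizes retinal, stood at 9.1, 8.9, 8.55, 10.8 and 9.6 in chow and at 10.5, 11, 11.3, 11.7 and 11.3 in HFD+PE (change 1.77, SE 0.36). Only chow animal 5 overlapped with HFD+PE. Serpina7, the thyroxine-binding globulin, stood at 6.1, 8.1, 4.95, 6.2 and 6.2 against 8.4, 6.4, 8.65, 9.0 and 9.8 (change 2.14, SE 0.61). Nampt, an enzyme of NAD synthesis, stood at 9.1, 9.8, 9.7, 9.3 and 9.5 against 9.4, 8.0, 7.15, 8.4 and 7.8 (change -1.33, SE 0.32). HFD+PE animal 1 lay in the chow range for Nampt and the other 4 below it. None of these genes passed the limma adjusted p of 0.05 with all animals.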
